A study of Mus musculus with 18 samples.

Results

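The proteins that chondrocytes build into cartilage beside its collagens were followed here through 10 listed genes: Acan, Hapln1, Comp, Matn1, Matn2, Matn3, Matn4, Prg4, Cilp and Cilp2. They were taken by name from the 49184 genes to which transcripts could be summed, and all 10 passed the filter on low counts. RNA was sequenced from knee cartilage of C57bl6 mice, aged 12 weeks, whose right knee was loaded once at 12 N until the anterior cruciate ligament (ACL) ruptured. Right knees gave 3 day 1 injured and 3 day 7 injured libraries, left knees gave 3 day 1 contralateral and 3 day 7 contralateral libraries, and mice with no procedure gave 6 naive libraries, labelled day 7. By the methods of the study a library pools 2 mice at day 1, 4 mice at day 7 and 2 knees in the naive group, whereas the series text gives 4 mice for every sample, so p-values measure the spread between pools and not between single animals. The same methods give 6 naive mice, with separate pools for each side of the body, so some of the 6 naive libraries share animals and are not independent of each other. Injured and contralateral knees came from the same mice, and left knees belong to animals with an injured limb. The supplement of the study explains the larger day 7 pools by cartilage that was partly lost. The part of that loss in the differences below was not tested. Libraries held between 16074762 and 41794005 estimated counts, with a median of 25465706.

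Cartilage is a composite in which aggrecan, a large proteoglycan, binds hyaluronan and holds water, and a link protein locks that bond. Cartilage oligomeric matrix protein (COMP) and the matrilins are multi-subunit adaptor proteins that connect collagen fibrils with the proteoglycan network. Lubricin, the product of Prg4, coats the joint surface, and the cartilage intermediate layer proteins, Cilp and Cilp2, are named for the middle depth of articular cartilage in which CILP accumulates. Loss of aggrecan and release of COMP fragments are well-known features of osteoarthritic cartilage.

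At day 7 after rupture the RNA of 4 of the 10 genes stood above naive cartilage (Matn2, Matn4, Acan and Comp), and none stood below it. Of all 21129 genes tested, 10.4% were called higher and 6.11% lower by the same rule. Matn2 rose most, 8.06-fold, followed by Matn4 at 5.15-fold, Acan at 2.96-fold and Comp at 2.63-fold. Matn1 and Matn3, the other matrilins, and Prg4, Cilp, Cilp2 and Hapln1 did not pass the test against naive cartilage. At day 1 none of the 10 passed in either comparison of the injured knee.

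The methods of the study state that 1 ACL library with low read mapping was left out of the authors' analysis, without naming it. The mouse numbers and pool sizes in those methods make no library beyond the 18 used here. By that design the library left out would be among them, but no source states it. All 18 were used. One library stood apart before any gene was compared. Day 7 contralateral library 1 gave 42.5% of its counts to its 10 most abundant genes, against 16.6% to 29.8% in the other 17 libraries, and it was the lowest in genes detected, with 24213. Its summed erythroid markers reached 64660 CPM (counts scaled to library size) and its Col2a1 10448 CPM. Calls and list counts against the day 7 contralateral group are therefore also given without it.

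The tissue label was compared with cell type markers. Every marker of the chondrocyte list was detected, and the list summed to between 3042 and 13021 CPM across the 18 libraries, with Col2a1 its most abundant gene. Erythroid markers summed to between 16761 and 64660 CPM, marrow myeloid markers to between 7758 and 15832 CPM and skeletal muscle markers to between 2073 and 10752 CPM, so the libraries also hold RNA of blood, marrow and muscle. All levels below are read in tissue of mixed cells, where fewer cells of a type and less RNA per cell cannot be told apart.

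Upstream sequence is shown for genes on both sides of the day 7 result: Acan and Matn4, which rose, and Matn1 and Matn3, which did not pass. RefSeq promoters of GRCm38.p6 were found for 7 of the 10 genes, namely these 4 and Hapln1, Cilp and Cilp2; Comp, Matn2 and Prg4 had no entry. Each run is the 250 bases before an annotated start, read 5′ to 3′ on the gene's own strand. Capitals mark matches, on either strand, to 7 short motifs: the SOX core AACAAT, the TATA box TATAAA, the CCAAT box, the AP-1 site TGAGTCA, the TEAD core GGAATG, the RUNX core TGTGGT and the SMAD element CAGACA. Matn4 has 2 annotated starts, and both runs are given. The Acan run is chr7:79052976-79053225 on the plus strand, the Matn4 runs are chr2:164405161-164405410 and chr2:164404819-164405068 on the minus strand, the Matn1 run is chr4:130944135-130944384 and the Matn3 run is chr12:8947679-8947928, both on the plus strand.
Acan: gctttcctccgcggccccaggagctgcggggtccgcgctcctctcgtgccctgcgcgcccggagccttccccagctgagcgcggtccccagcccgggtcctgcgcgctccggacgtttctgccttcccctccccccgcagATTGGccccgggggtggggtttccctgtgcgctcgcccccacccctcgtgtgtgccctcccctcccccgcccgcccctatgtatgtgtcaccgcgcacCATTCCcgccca
Matn4, first start: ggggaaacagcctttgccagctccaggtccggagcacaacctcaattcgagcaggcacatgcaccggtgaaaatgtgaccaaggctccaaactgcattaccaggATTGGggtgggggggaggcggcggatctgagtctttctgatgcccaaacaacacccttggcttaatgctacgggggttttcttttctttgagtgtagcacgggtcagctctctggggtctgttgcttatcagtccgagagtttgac
Matn4, second start: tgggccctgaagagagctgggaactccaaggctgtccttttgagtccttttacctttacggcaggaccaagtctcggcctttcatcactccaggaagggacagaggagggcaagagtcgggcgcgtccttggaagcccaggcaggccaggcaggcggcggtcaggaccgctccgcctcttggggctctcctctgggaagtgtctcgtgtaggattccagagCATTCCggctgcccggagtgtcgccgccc
Matn1: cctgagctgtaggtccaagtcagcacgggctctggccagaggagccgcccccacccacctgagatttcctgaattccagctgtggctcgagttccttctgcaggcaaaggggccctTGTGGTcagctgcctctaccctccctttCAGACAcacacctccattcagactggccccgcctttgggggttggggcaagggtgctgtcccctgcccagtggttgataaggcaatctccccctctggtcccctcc
Matn3: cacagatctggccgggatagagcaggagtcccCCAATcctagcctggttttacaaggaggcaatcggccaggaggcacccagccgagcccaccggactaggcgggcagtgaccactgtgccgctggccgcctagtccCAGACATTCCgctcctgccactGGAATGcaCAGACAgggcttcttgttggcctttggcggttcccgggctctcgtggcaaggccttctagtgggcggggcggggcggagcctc

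The Acan run was 74.4% G and C, against a median of 52.4% over 32851 promoters of the same length, and those of the 3 matrilins ranged from 54.4% to 65.2%. It held a reversed CCAAT box at position -110 and a reversed TEAD core at -12, counted from the start. The Matn4 runs held a reversed CCAAT box at -146 of the first start and a reversed TEAD core at -29 of the second. Matn3 held 5 matches, among them TEAD cores at -109 and -91, the first of which overlaps a SMAD element at -113, and a second SMAD element at -83. Matn1 held a RUNX core at -134 and a SMAD element at -106. Over all promoters a CCAAT box was found in 33.85%, a SMAD element in 17.1%, a RUNX core in 14.045%, a TEAD core in 12.6%, a TATA box in 12.4%, a SOX core in 9.42% and an AP-1 site in 4.46%. A CCAAT box was thus present upstream of Acan and the first start of Matn4, which rose, and of Matn3, which did not pass. A TEAD core was present upstream of Acan, the second start of Matn4 and Matn3. Neither motif was found upstream of Matn1, Hapln1, Cilp or Cilp2, which did not pass against naive cartilage either. These letters describe the window and identify no bound factor.

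In naive cartilage the 10 genes spanned a wide range of abundance. On the TPM scale, which corrects for depth and divides by transcript length and so allows genes to be set side by side, Prg4 led with 352 ± 164 TPM (SD, n = 6). Comp followed at 105 ± 28.3 TPM, Cilp at 36.8 ± 16.6 TPM and Acan at 27.5 ± 11.01 TPM. The middle of the order held Hapln1 at 16.8 ± 5.01 TPM, Matn3 at 10.5 ± 2.76 TPM and Cilp2 at 7.46 ± 2.62 TPM. Matn2 at 3.45 ± 0.597 TPM, Matn4 at 1.84 ± 0.3197 TPM and Matn1 at 0.950 ± 0.597 TPM closed it. Among neighbours in this order, library ranges were separate between Prg4 and Comp, between Comp and Cilp and between Matn2 and Matn4, and they overlapped in the other 6 pairs. By rank of mean TPM over all 49184 genes, Prg4 was number 106, Comp number 330 and Matn1 number 14201. Prg4 held 60.8 ± 10.2% of the summed TPM of the 10 genes in naive libraries and Comp 19.7 ± 5.25%. These levels of Prg4 rest on a mean effective length of 1.12 kb, as part of its counts was assigned to short forms. Among these were Prg4-207 with 1480 bases and Prg4-204 with 337, while Prg4-206, its most abundant form, has 3821 bases. Its TPM, rank and share thus depend on how reads were divided between forms. Before division by length its lead was smaller, with means of 781 CPM for Prg4 and 432 CPM for Comp.

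The order shifted at day 7. By mean TPM, Acan moved from rank 4 to rank 3, Matn2 from rank 8 to rank 5 and Matn4 from rank 9 to rank 8, while Cilp2 moved from rank 7 to rank 9. In day 7 injured libraries the range of Acan lay above that of Cilp. That of Matn2, 15.9 to 27.5 TPM, overlapped those of Hapln1, 11.4 to 20.8 TPM, and Cilp, 18.3 to 28.2 TPM. The range of Matn4, 6.78 to 9.21 TPM, overlapped those of Matn3, 8.37 to 11.4 TPM, and Cilp2, 5.82 to 7.44 TPM. Matn2 reached 21.8 ± 5.84 TPM (SD, n = 3) in day 7 injured cartilage, above the mean of Hapln1, 17.6 ± 5.38 TPM. Matn1 stayed last at 0.473 ± 0.172 TPM. Expressed as a share of the summed TPM of the 10 genes, Acan took 4.98 ± 1.51% in naive and 8.83 ± 0.572% in day 7 injured libraries, and Matn2 took 0.654 ± 0.188% and 2.76 ± 0.166%. Cilp took 6.83 ± 2.59% and 3.04 ± 0.355%, and its naive range of 2.20% to 9.57% enclosed the day 7 injured range of 2.69% to 3.40%. The summed TPM behind these shares was 563 ± 174 in naive and 800 ± 255 in day 7 injured libraries. It was highest in day 1 injured libraries, at 995 ± 207, with 636 ± 212 in day 1 contralateral and 380 ± 154 in day 7 contralateral libraries.

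**Figure D1:**
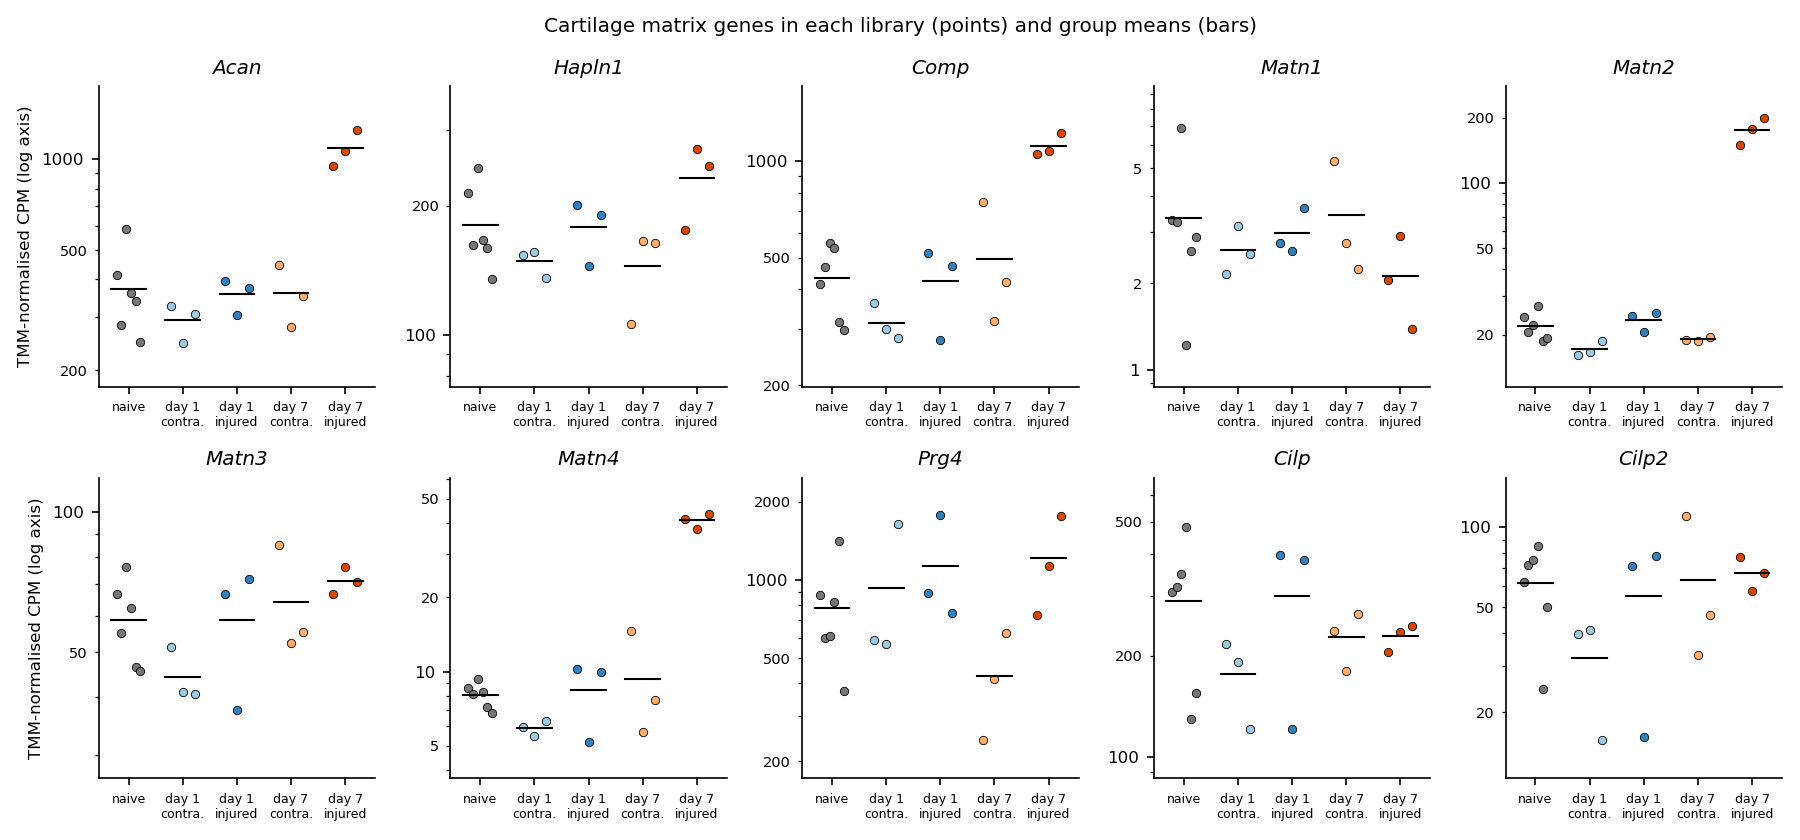
Each panel plots one gene's CPM, normalised by the trimmed mean of M values (TMM), on a log axis in the 5 groups; points are single libraries and bars are group means. The 3 day 7 injured libraries lie above every other library for Acan, Comp, Matn2 and Matn4, and lie among them for the other genes apart from the highest Hapln1 values.

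The aggregate core was followed through Acan and Hapln1. Acan (ENSMUSG00000030607, chr7:79053483-79115099) encodes aggrecan itself. Its naive libraries ran from 248.8 CPM through a median of 350 CPM to 587 CPM, and the day 7 injured libraries gave 949, 1064 and 1252 CPM. The other groups gave 328, 247 and 307 CPM at day 1 contralateral, 394, 305 and 374 CPM at day 1 injured, and 448, 278 and 354 CPM at day 7 contralateral. No day 7 injured library overlapped any of the other 15. The log2 fold change of Acan against naive was 1.57 ± 0.202 (SE; false discovery rate, FDR, 3.31e-05, edgeR quasi-likelihood test), and the 95% confidence interval of the fold change ran from 2.20 to 3.99.

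Hapln1 (ENSMUSG00000021613, chr13:89539796-89611652) encodes the link protein that fixes aggrecan to hyaluronan. Naive libraries ran from 135 CPM through a median of 164 CPM to 246 CPM, and day 7 injured libraries gave 176, 272 and 247 CPM. Day 1 contralateral libraries gave 153, 156 and 136 CPM, day 1 injured libraries 201, 145 and 190 CPM, and day 7 contralateral libraries 106, 165 and 163 CPM. The injured and naive ranges of Hapln1 overlapped, whereas all 3 injured libraries lay above all 3 day 7 contralateral libraries. Its log2 fold change was 0.38 ± 0.174 against naive (FDR 0.112, edgeR), with a fold interval from 1.01 to 1.68, and 0.68 ± 0.2202 against day 7 contralateral (FDR 0.0400). Without day 7 contralateral library 1 the latter was 0.52 with an FDR of 0.131, so this call rested on that library. It was also lost without day 7 injured library 2 (FDR 0.147) or library 3 (FDR 0.128), and without naive library 2 (FDR 0.0508) or day 1 contralateral library 2 (FDR 0.0527).

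Among the adaptor proteins, Comp (ENSMUSG00000031849, chr8:70373558-70382066) encodes a pentameric thrombospondin that binds collagen. Naive libraries ran from 298 CPM through a median of 441 CPM to 556 CPM, and day 7 injured libraries gave 1058, 1076 and 1229 CPM. Day 7 contralateral libraries gave 746, 317 and 421 CPM, with the highest value in library 1. The TMM factor of library 1 was 0.696, and by TPM it was the lowest, at 68.7 against 98.6 and 107 TPM. Day 1 contralateral libraries gave 361, 299 and 280 CPM, and day 1 injured libraries 519, 277 and 472 CPM. The 3 day 7 injured values thus exceeded all other 15 libraries, the nearest being day 7 contralateral library 1. The log2 fold change of Comp against naive was 1.39 ± 0.203 (FDR 1.04e-04, edgeR).

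Matn2 (ENSMUSG00000022324, chr15:34306677-34436273) encodes matrilin-2, the widely expressed member of a family best known from cartilage. Naive libraries ran from 18.8 CPM through a median of 21.3 CPM to 27.2 CPM, and day 7 injured libraries gave 150, 177 and 200 CPM. Libraries of the other groups were 16.1, 16.7 and 18.6 CPM at day 1 contralateral, 24.3, 20.7 and 25.1 CPM at day 1 injured, and 18.9, 18.7 and 19.5 CPM at day 7 contralateral. The lowest day 7 injured library was thus far above the highest of the other 15, 27.2 CPM. The log2 fold change against naive was 3.01 ± 0.115 (FDR 5.66e-10, edgeR), and no gene had a lower FDR in that comparison. For Matn2 the fold interval ran from 6.80 to 9.54.

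Matn4 (ENSMUSG00000016995, chr2:164389393-164405160, minus strand) encodes matrilin-4, which forms filaments in many connective tissues. Naive libraries ran from 6.77 CPM through a median of 8.19 CPM to 9.29 CPM, and day 7 injured libraries gave 41.3, 37.7 and 43.5 CPM. Day 7 contralateral libraries gave 14.6, 5.71 and 7.67 CPM, again highest in library 1. By TPM library 1 was again the lowest, at 1.39 against 1.66 and 1.83 TPM. Day 1 contralateral libraries gave 5.98, 5.48 and 6.29 CPM and day 1 injured libraries 10.2, 5.18 and 9.95 CPM. Every day 7 injured library lay above the other 15. The log2 fold change of Matn4 was 2.36 ± 0.157 (FDR 5.42e-08, edgeR) against naive, with a fold interval from 4.08 to 6.49.

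Matn1 and Matn3, the matrilins most restricted to cartilage, did not pass. Matn3 (ENSMUSG00000020583, chr12:8947929-8972028) ran in naive libraries from 45.5 CPM through a median of 58.7 CPM to 76.3 CPM and gave 66.8, 76.2 and 70.7 CPM at day 7 injured, within the naive range. Its day 7 contralateral libraries gave 84.9, 52.5 and 55.4 CPM. The log2 fold change of Matn3 against naive was 0.30 ± 0.186 (FDR 0.247, edgeR) with a fold interval from 0.933 to 1.62, which lies below the intervals of Matn2 and Matn4. Matn1 (ENSMUSG00000040533, chr4:130944385-130955475) was scarce throughout, between 1.23 and 6.88 CPM in naive libraries, and gave 2.04, 2.91 and 1.39 CPM at day 7 injured. Its log2 fold change was -0.67 ± 0.3999 (FDR 0.225) and its fold interval, from 0.349 to 1.14, leaves room for a fall but not for a rise like that of Matn2.

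Prg4 (ENSMUSG00000006014, chr1:150449412-150466165, minus strand), which encodes the boundary lubricant lubricin, varied widely between replicates. Naive libraries ran from 373 CPM through a median of 715 CPM to 1409 CPM. Day 1 contralateral libraries gave 586, 565 and 1649 CPM and day 1 injured libraries 892, 1775 and 743 CPM. Day 7 contralateral libraries were the lowest group at 241, 414 and 624 CPM, and day 7 injured libraries gave 730, 1133 and 1771 CPM. The 3 injured values lay above the 3 contralateral values at day 7 but overlapped every other group. The log2 fold change was 0.65 ± 0.425 against naive (FDR 0.266, edgeR) and 1.51 ± 0.515 against day 7 contralateral, where the FDR of 0.0504 missed the threshold. Without day 7 contralateral library 1 it was 1.24 with an FDR of 0.160. It passed without naive library 5 or 6, day 1 contralateral library 2 or 3, day 1 injured library 2, day 7 contralateral library 3 or day 7 injured library 1 (FDR 0.0299 to 0.0497).

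Cilp (ENSMUSG00000042254, chr9:65265180-65280605) encodes a large secreted protein with a known ability to hold back growth factor signalling, and Cilp2 (ENSMUSG00000044006, chr8:69880369-69887687, minus strand) its paralogue. Day 7 injured libraries gave 205, 234 and 245 CPM for Cilp, inside the naive range of 129 to 483 CPM, and 77.6, 57.4 and 67.3 CPM for Cilp2, inside the naive range of 24.5 to 85.4 CPM. The log2 fold changes against naive were -0.33 ± 0.394 for Cilp (FDR 0.551, edgeR) and 0.15 ± 0.426 for Cilp2 (FDR 0.814). Their fold intervals, from 0.443 to 1.42 and from 0.593 to 2.08, were wide.

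Prg4, Cilp and Cilp2 shared 3 libraries at the ends of their ranges. Naive library 5, day 1 contralateral library 3 and day 1 injured library 2 held the 3 highest Prg4 values outside the day 7 injured group, 1409, 1649 and 1775 CPM. The same 3 libraries held the 3 lowest Cilp values of all 18, 129, 121 and 121 CPM, and the 3 lowest Cilp2 values, 24.5, 15.8 and 16.2 CPM. Day 1 injured libraries 1 and 3 showed the other pattern, with Prg4 at 892 and 743 CPM and Cilp at 398 and 385 CPM. Summed skeletal muscle markers in the 3 libraries were 2706, 3957 and 3011 CPM and adipocyte markers 175, 174 and 142 CPM, which were the lowest values of both lists within each of the 3 groups. Summed chondrocyte markers were 3621, 3355 and 3042 CPM and osteoblast and osteocyte markers 499.7, 457 and 608 CPM, likewise the lowest of each group. Other lists took no common place. Summed erythroid markers were 31131, 40105 and 34149 CPM, the highest of both day 1 groups but not of the naive group. Summed tendon and ligament markers were 883, 832 and 838 CPM, the highest of the day 1 contralateral and the lowest of the day 1 injured group. Summed synovial fibroblast markers were 2749, 2308 and 2500 CPM, the highest of both day 1 groups and below naive library 4 alone among the naive libraries. The part of tissue composition in these differences was not tested. The 3 libraries were singled out after their values were seen, and no test was made between them and the other libraries.

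**Figure D2:**
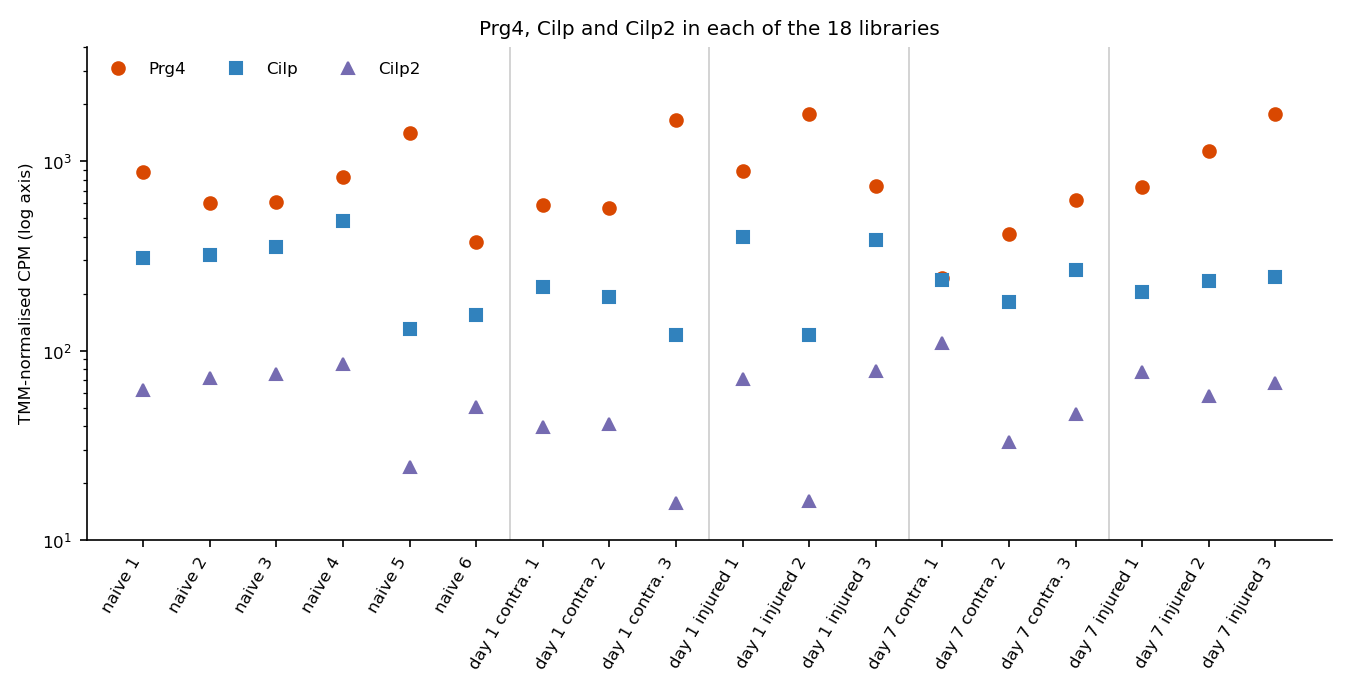
CPM of Prg4, Cilp and Cilp2 on a log axis in each of the 18 libraries, with vertical lines between the 5 groups. In naive library 5, day 1 contralateral library 3 and day 1 injured library 2 the Prg4 point is high and both Cilp points are low.

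A gene was called when its FDR was at most 0.05 and its change at least 1.5-fold. By that rule the 4 genes were higher than in naive cartilage, as were 10.4% of all genes. Over the 10 genes the log2 fold changes against naive had a median of 0.52, beside -0.04 over all genes tested, and 8 of the 10 lay above 0, as did 46.6% of all genes. All 3 day 7 injured libraries exceeded all 6 naive libraries for 4 of the 10 genes, as they did for 17.3% of 21262 genes. The 4 called genes were called in all 22 alternative settings tried, which include leaving out single libraries.

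The same 3 injured libraries were set beside the opposite knees of their own mice. Here 5 genes were called higher, namely Acan at 1.60 ± 0.256, Hapln1 as given above, Comp at 1.18 ± 0.297, Matn2 at 3.20 ± 0.145 and Matn4 at 2.16 ± 0.275 (log2 fold change ± SE; edgeR FDR 2.38e-04, 0.0400, 0.00945, 1.03e-09 and 2.61e-05). None was called lower. The injured libraries lay above all 3 contralateral libraries for 6 of the 10 genes, these and Prg4, as they did for 18.6% of genes. Of all 21262 genes tested, 9.33% were called higher and 3.23% lower. Without day 7 contralateral library 1 the log2 fold changes were 1.81 for Acan, 1.62 for Comp, 3.22 for Matn2 and 2.63 for Matn4, and these 4 remained called, as were 9.31% of all genes higher and 1.99% lower. Comp lost its call without day 7 contralateral library 2, with a log2 fold change of 0.92 and an FDR of 0.0517. Matn1, Matn3, Cilp and Cilp2 had log2 fold changes of -0.67, 0.15, 0.00 and 0.10 with FDRs from 0.356 to 0.999.

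Time after rupture was addressed by comparing injured knees at day 7 with injured knees at day 1. Acan at 1.62 ± 0.248, Comp at 1.43 ± 0.248, Matn2 at 2.93 ± 0.146 and Matn4 at 2.29 ± 0.196 were higher at day 7 (log2 fold change ± SE; edgeR FDR 2.96e-04, 8.25e-04, 3.47e-08 and 1.77e-06). The other 6 genes did not pass, with log2 fold changes between -0.49 and 0.40. All day 7 injured libraries exceeded all day 1 injured libraries for these 4 genes, as they did for 22.7% of genes. Of all genes tested, 9.04% were called higher and 6.38% lower. This comparison shares its day 7 injured libraries with the previous ones, so their like results are not independent of each other.

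At day 1 no gene among the 10 was called, nor any gene at all by the edgeR test: 0% of 21129 genes in injured against naive, in injured against contralateral and in contralateral against naive. At an unadjusted p under 0.05, 959, 1383 and 554 genes passed in these 3 comparisons, and DESeq2 called 15 lower, none, and 1 higher with 1 lower. Against the day 1 contralateral knee all 10 log2 fold changes of the injured knee lay above 0, between 0.19 for Matn1 and 0.77 for Cilp and Cilp2, with a median of 0.41, where 49.7% of all genes lay above 0. The lowest FDR among them was 0.755, reached by Matn2 at 0.44 ± 0.139 and Matn4 at 0.50 ± 0.195. The day 1 injured libraries exceeded all day 1 contralateral libraries for Matn2 alone, a pattern met by 5.09% of all genes. Contralateral day 1 cartilage lay below naive for 9 of the 10 genes, with a median log2 fold change of -0.38, where 50.4% of all genes lay below 0. Both comparisons use the same 3 day 1 contralateral libraries, so low values in these give both directions at once. For Matn2 and Matn4 all its libraries lay below all naive libraries, as they did for 0.748% of genes, and no FDR was under 0.99975 in that comparison. Day 7 contralateral cartilage against naive likewise gave 0% of 21262 genes and none of the 10, also without library 1, with 3220 genes at an unadjusted p under 0.05 and, by DESeq2, 18 called higher and 13 lower. The limma-voom test called none in these 4 comparisons.

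**Figure D3:**
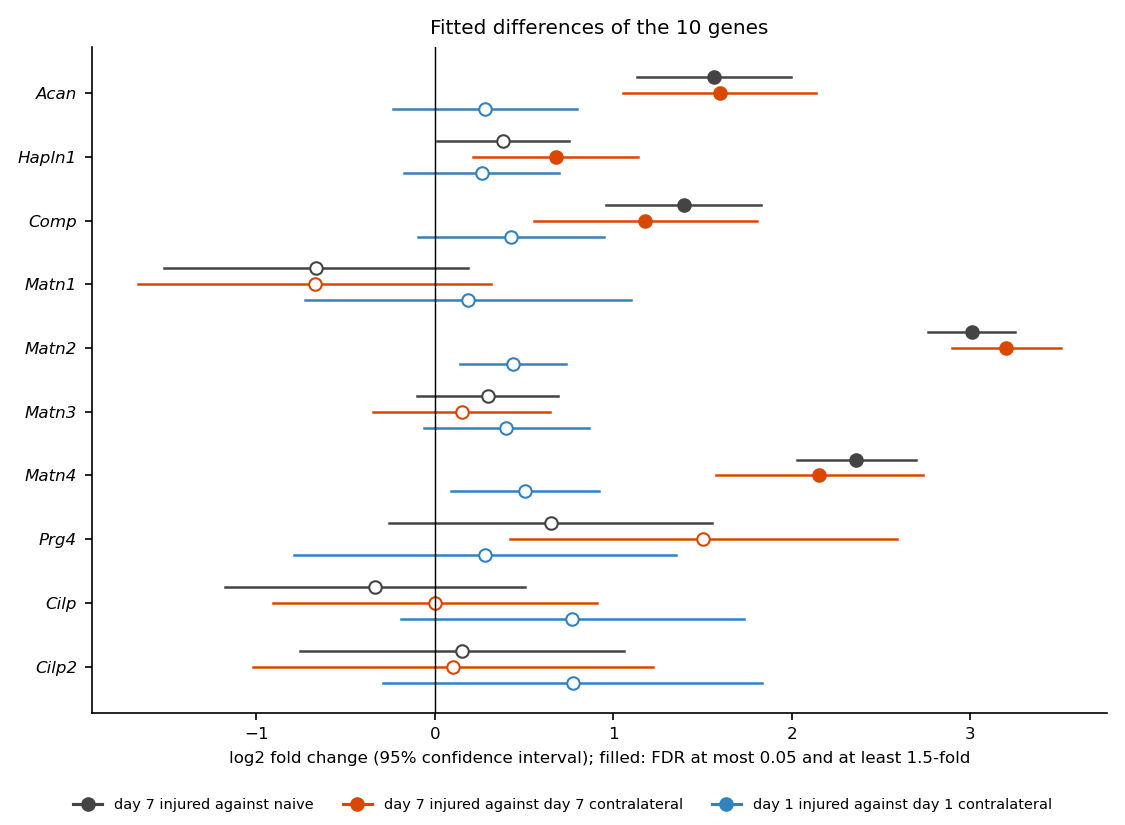
Log2 fold changes of the 10 genes with 95% confidence intervals in 3 comparisons; filled circles were called (FDR at most 0.05 and at least 1.5-fold) and open circles were not. Matn2, Matn4, Acan and Comp are filled in both day 7 comparisons, Hapln1 in that with the contralateral knee, and no gene is filled at day 1.

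Whether the difference between injured and contralateral knees was larger at day 7 than at day 1 was tested directly as an interaction. It was for Matn2, by 2.76 ± 0.194 on the log2 scale (FDR 6.64e-07, edgeR), for Matn4, by 1.65 ± 0.380 (FDR 0.0194), and for Acan, by 1.31 ± 0.355 (FDR 0.0463). Among all genes tested 3.72% passed in this direction and 0.287% in the other. Comp at 0.75 ± 0.415 did not pass (FDR 0.396), nor did Prg4 at 1.22 ± 0.715 (FDR 0.429) or Hapln1 at 0.41 ± 0.310 (FDR 0.556). Matn1, Matn3, Cilp and Cilp2 had values from -0.87 to -0.25. Without day 7 contralateral library 1 the values were 2.78 for Matn2, 2.12 for Matn4 and 1.53 for Acan, and all 3 still passed. The Matn4 call was lost in 4 of 24 settings, without day 1 contralateral library 3, day 7 contralateral library 2 or 3 or day 7 injured library 3 (FDR 0.0553 to 0.0653). The Acan call held in 8 of 24 settings, among them without naive library 3 or 6, day 7 contralateral library 1 or day 7 injured library 1, and leaving out any other single library ended it (FDR up to 0.143).

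Transcripts of Matn2 moved unequally. GENCODE lists 6 transcripts of the gene, of which 3 held at least 10% of its estimated counts in some group. Matn2-205 and Matn2-201 are full-length forms of 19 exons whose exon 17 differs by 57 bases, and Matn2-203 is a short form of 3 exons and 3252 bases. Its last exon does not stop at chr15:34345560, where exon 3 of Matn2-201 ends, but runs on for 2288 bases into the intron. To show where the forms part, the last 30 shared bases are given below in lower case and the next 30 bases of each transcript in capitals, on the plus strand of GRCm38. In Matn2-201 the capitals are the start of exon 4, chr15:34355563-34355592, and in Matn2-203 they are intron, chr15:34345561-34345590.
Matn2-201: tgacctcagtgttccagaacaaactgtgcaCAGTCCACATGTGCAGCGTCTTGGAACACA
Matn2-203: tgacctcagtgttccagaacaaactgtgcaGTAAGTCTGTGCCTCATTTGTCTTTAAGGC

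Matn2-205 was estimated at 13.7 ± 3.23 CPM in naive (SD, n = 6) and 130 ± 23.3 CPM in day 7 injured libraries (n = 3), and Matn2-201 at 5.05 ± 1.72 and 38.6 ± 1.90 CPM. Matn2-203 gave 2.57 ± 0.310 CPM in naive and 2.93 ± 0.296 CPM in day 7 injured libraries, which at 2.61 to 3.20 CPM lay above the day 7 contralateral libraries at 1.24 to 2.33 CPM. Its share of the gene's estimated counts was thus 11.9 ± 2.52% in naive, between 9.17% and 15.7%, and 1.68 ± 0.0712% in day 7 injured libraries, between 1.60% and 1.74%, with no overlap. Most of the change in the gene's level was in the full-length forms. Reads in the first 3 exons fit all of these forms and are divided between them by estimation, and no test was made on transcripts.

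**Figure D4:**
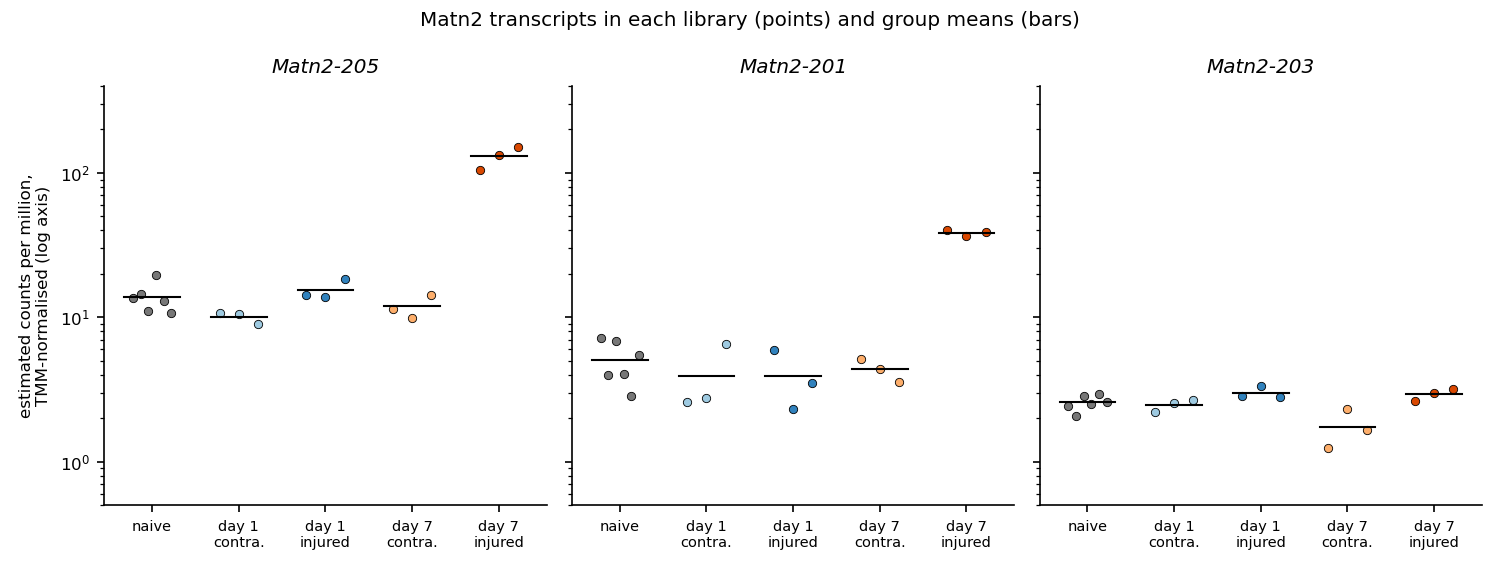
CPM of 3 Matn2 transcripts on a shared log axis in the 5 groups; points are libraries and bars are group means. Matn2-205 and Matn2-201 are highest in the 3 day 7 injured libraries, and Matn2-203 stays near 3 CPM in naive and day 7 injured libraries.

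Prg4 and Matn4 were divided over several forms as well. In naive libraries the form Prg4-206 held 38.2 ± 3.01% of its counts, Prg4-207 31.7 ± 3.54% and Prg4-203 19.0 ± 7.95%, and in day 7 injured libraries they held 36.1 ± 3.61%, 32.4 ± 10.7% and 7.30 ± 2.95%. Prg4-202 held 1.301 ± 3.19% in naive libraries, where it reached 7.80% in one of them, and 14.1 ± 7.58% in day 7 injured libraries, between 8.01% and 22.6%. Prg4-204 held 6.56 ± 1.31% in naive libraries and 32.6%, 5.96% and 7.19% in the 3 day 7 contralateral libraries, so that library 1 alone was high. Matn4-201 held 91.0 ± 2.66% of the Matn4 counts in naive and 96.0 ± 0.435% in day 7 injured libraries, but 47.6%, 19.7% and 89.5% in day 7 contralateral libraries, where Matn4-203 took 39.5% in library 1 and Matn4-202 66.6% in library 2. Matn4-205, a form with a retained intron, held 9.01 ± 2.66% in naive, 10.98 ± 3.17% in day 1 contralateral, 13.6 ± 3.81% in day 1 injured and 3.90 ± 0.588% in day 7 injured libraries. In the 3 day 7 contralateral libraries it held 2.01%, 13.7% and 10.4%, of which the first lay below all day 7 injured libraries. Matn1, Matn3 and Cilp2 have 1 transcript each, and Acan-201, Hapln1-201, Comp-201 and Cilp-201 each held over 90% of the counts of their gene in each group. Exons of neighbouring genes on the opposite strand overlap 4.77% of the exonic bases of Prg4 (Tpr), 2.88% of those of Matn4 (Rbpjl) and 1.12% of those of Matn2 (9430069I07Rik). No other gene of the 10 shares exonic bases.

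Genes whose profile over the 18 libraries lay closest to each of the 10 were found by the root mean square difference of log2 CPM, after each of 21262 genes was centred on its own mean. Nearest to Matn2 were Antxr1 at 0.157, a collagen-binding receptor, and Col6a1 at 0.167, a chain of pericellular type VI collagen. Nearest to Acan were Pkd1 at 0.179 and Nid2 at 0.183, to Comp Fzd8 at 0.189 and Mfge8 at 0.206, and to Matn4 the antisense RNA C230034O21Rik at 0.197 and Nbl1 at 0.218. Hapln1 lay closest to Cnmd at 0.132, which encodes the cartilage protein chondromodulin, and to Cc2d2a at 0.138. Matn3 lay closest to Olfml2a at 0.154 and Wscd2 at 0.155, and Cilp to Hhip at 0.228, a hedgehog-binding protein, and Stk32b at 0.246. Distances were larger for Prg4, with Eda2r at 0.331 and the proteinase gene Adamts1 at 0.332, for Cilp2, with Spock2 at 0.329 and Igfbp6 at 0.341, and for Matn1, with Stc2 at 0.353 and Hif3a at 0.367.

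Other genes of the cartilage matrix were counted by list, in day 7 injured against naive. Of 11 cartilage collagen genes 4 rose and 0 fell, with a median log2 fold change of 0.26. The 4 were Col6a2 at 3.08, Col6a1 at 3.04 and Col6a3 at 2.66, the chains of type VI collagen, and Col11a1 at 1.26. Col2a1, the main cartilage collagen, was at 0.25 ± 0.196 (FDR 0.358, edgeR), and the type IX genes ranged from -0.03 to 0.26. Against the day 7 contralateral knee the same 4 rose and the median was -0.39, but without its library 1, in which Col2a1 was high, the median was 0.40 with the same 4 called.

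Small leucine-rich proteins, which decorate collagen fibrils and growth factors, rose in 7 of 11 cases and fell in 1, with a median of 1.26. Aspn was at 4.22, Lum at 2.86, Ogn at 2.55 and Bgn at 2.30. Chad, which encodes chondroadherin and is the single gene that fell, was at -0.73 ± 0.259 (FDR 0.0459, edgeR). Against the contralateral knee 7 rose and none fell, with or without its library 1. Thbs2 at 3.90, Thbs3 at 2.76, Thbs4 at 1.52 and Thbs1 at 0.85, the thrombospondin relatives of COMP, all rose against naive and against the contralateral knee, with or without library 1 of the latter, and their median was 2.14.

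Of 10 hyaluronan-binding relatives and synthases 9 were tested, 5 rose and none fell, with a median of 1.49. Hapln2 was not tested. Vcan, encoding versican, was at 2.06, the link protein gene Hapln4 at 1.82, the synthase gene Has2 at 1.80 and Bcan at 1.49, and Has1 was called as well. Only 2 of the list, Vcan and Has2, were called against the contralateral knee, with or without its library 1. Another list held 15 genes, of proteinases that act on aggrecan or COMP and of inhibitors of such enzymes. Of these 10 rose and none fell, with a median of 1.52. Mmp14 at 2.82, Htra1 at 2.33, Adamts12 at 2.30 and Timp2 at 2.09 had the lowest FDRs. Adamts4, an aggrecanase gene, rose at 2.55, whereas Adamts5, the other main aggrecanase gene, was at 0.06 ± 0.128 (FDR 0.734). Against the contralateral knee 9 rose, and 8 without its library 1.

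Of 17 regulators of cartilage matrix genes 9 rose and none fell, with a median of 0.60. Igf1 was at 2.96, Tgfb3 at 1.86, Nfatc2 at 1.46 and Tgfbr2 at 0.83. Sox9, whose product drives Acan and Col2a1 in chondrocytes, rose at 1.36 ± 0.186 (FDR 5.91e-05, edgeR), Sox5 rose at 0.64, and Sox6 was at -0.43, short of the fold limit. Against the contralateral knee 9 were called higher, and 8 without its library 1. Adamts4, Adamts5, Sox5 and Sox6 were named after their values were seen. Lists share genes, since Thbs4, Has1, Sox9, Chad and several collagens stand in 2 of them. Beside these counts stand the shares of all genes called, 10.4% higher and 6.11% lower against naive, 9.33% and 3.23% against the contralateral knee, and 9.31% and 1.99% against it without its library 1.

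**Figure D5:**
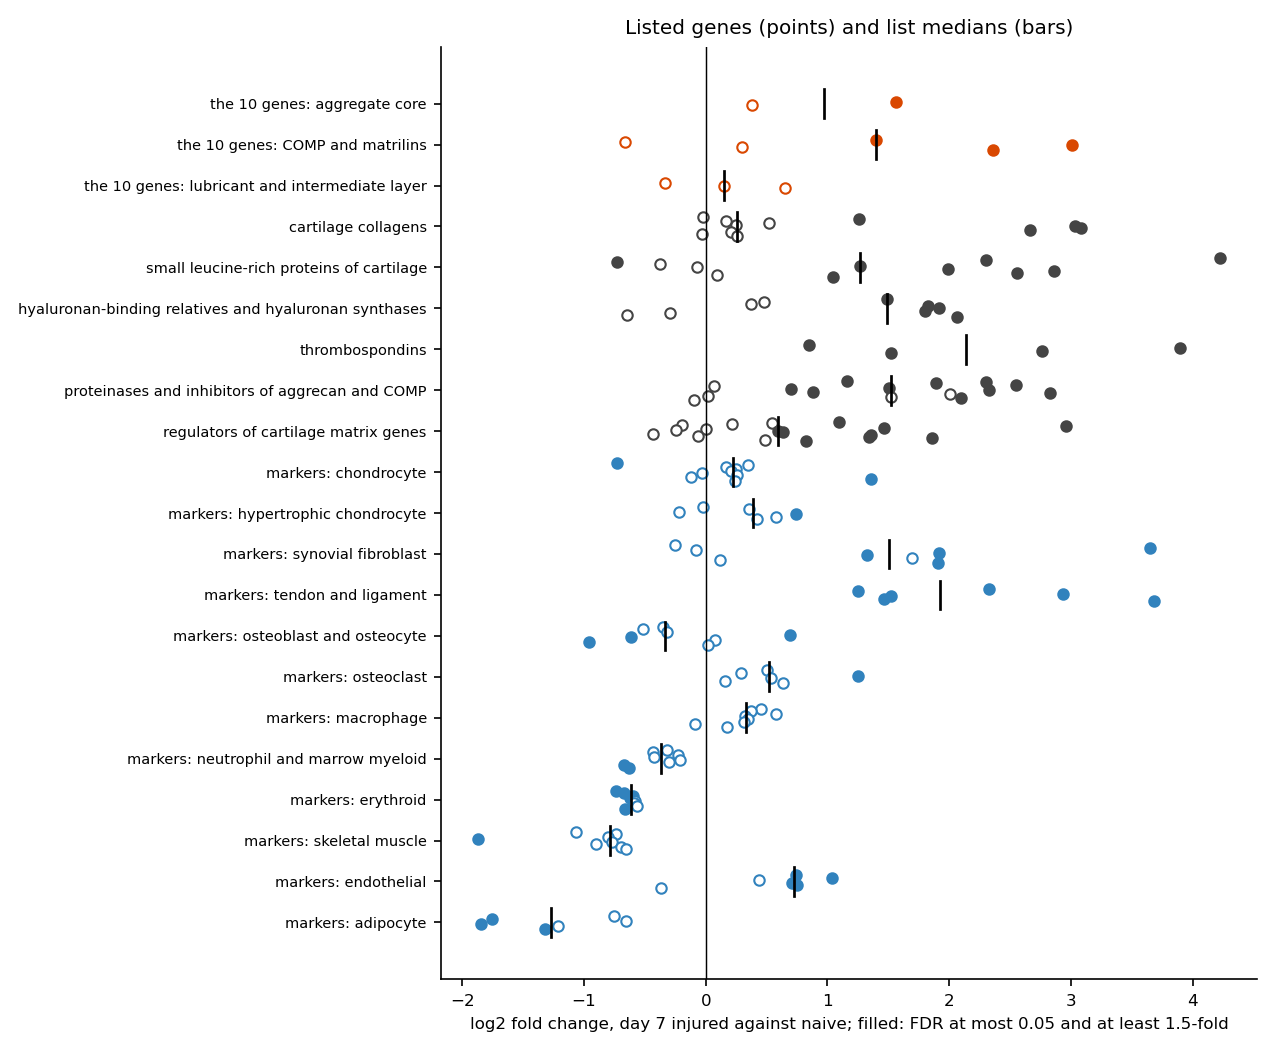
Log2 fold changes in day 7 injured against naive cartilage by list; points are genes, filled where called, and bars are list medians. Tendon and ligament markers and thrombospondins lie wholly to the right of 0, and most chondrocyte markers lie near 0.

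Markers of other cell types moved in the same comparison. All 6 tendon and ligament markers rose, with a median log2 fold change of 1.92, and their summed level was 643 to 987 CPM in naive and 2148, 2297 and 2758 CPM in day 7 injured libraries. Tnc was the most abundant, and Scx at 2.94, Tnmd at 3.68 and Kera at 2.32 rose with it. Synovial fibroblast markers rose in 4 of 8 cases, with Col3a1 at 3.65, Thy1 at 1.91, Pdgfra at 1.32 and Has1 at 1.92. Their sum went from 1532 to 3053 CPM in naive to between 22205 and 24849 CPM, most of it Col3a1. Clic5, Pi16 and Dpp4 of that list, named after their values were seen, were at -0.25, 0.11 and -0.08 and did not pass. Against the day 7 contralateral knee 6 of 6 tendon and 4 of 8 synovial fibroblast markers rose, beside 9.33% of all genes, and 6 and 3 without its library 1, beside 9.31%.

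Chondrocyte markers gave 1 higher, Sox9, and 1 lower, Chad, of 10, with a median of 0.22, and hypertrophic chondrocyte markers gave 1 of 6, Panx3 at 0.74. Endothelial markers rose in 4 of 6 cases, with a median of 0.73, namely Pecam1, Cdh5, Tie1 and Emcn, the last at 1.04. Vwf, the most abundant of that list, was at -0.37 (FDR 0.0271, edgeR), short of the fold limit, with 188 to 208 CPM in day 7 injured libraries, all below the naive range of 218 to 292 CPM. Osteoclast markers rose in 1 of 6 cases, Ctsk at 1.25. Osteoblast and osteocyte markers gave 1 higher, Ibsp at 0.69, and 2 lower, Mepe at -0.61 and Sost at -0.95, of 8. None of 8 macrophage markers was called, with Csf1r the most abundant, at 0.31.

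Erythroid markers fell in 5 of 8 cases, among them Hba-a1, Alas2 and Epb42, with a median of -0.61. Adipocyte markers fell in 3 of 6 cases (Cidec, Lep and Plin4), with a median of -1.27. S100a8 and S100a9 fell among 8 marrow myeloid markers, whose median was -0.37, and Myh2 among 8 muscle markers, whose median was -0.78. Hbb-bs, Fabp4, Ngp and Myh4 were the most abundant genes of these lists. In every list each marker had more than 3 counts in at least 1 library. Matn2, Matn4, Comp and Acan thus rose in libraries in which 6 of 6 tendon, 4 of 8 synovial fibroblast and 4 of 6 endothelial markers also rose, and in which 5 of 8 erythroid and 3 of 6 adipocyte markers fell, beside 10.4% of all genes higher and 6.11% lower. Against the contralateral knee 4 of 8 erythroid and 3 of 6 adipocyte markers fell, beside 3.23% of all genes, but 0 of 8 and 1 of 6 without its library 1, beside 1.99%. Endothelial markers rose there in 3 of 6 cases, and in 4 of 6 without library 1. The part of these other cells in the rise of the 4 genes was not tested.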

How the data were processed

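RNA of pooled mouse knee cartilage was sequenced in 18 libraries. By the methods of the study the authors pseudo-aligned the reads to the mouse GRCm38 transcriptome with kallisto, while the processing notes in the labels list GRCh38, which the mouse transcript identifiers do not match. The deposited estimated counts give, for each of 137436 transcripts, the reads that kallisto assigned to it, with reads shared by several transcripts divided between them. The deposited TPM values are the same estimates corrected by the authors' tool for effective length and depth.

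Estimated counts were summed to genes by the GENCODE annotation of GRCm38 and rounded to whole numbers. Of the transcripts 98.3% matched, and the others, with 0.667% to 3.90% of counts, were left out. Whether kallisto used the strand is not given in the sources used here. Low genes were removed with filterByExpr, libraries were scaled by TMM, and groups were compared with the edgeR 4.0.16 quasi-likelihood test in R 4.3.3, with Benjamini-Hochberg adjustment over all genes. Comparisons without the day 7 contralateral group used the other 15 libraries (21129 genes), the rest all 18 (21262 genes). CPM values are scaled by TMM. DESeq2 1.42.0, limma 3.58.1 with voom, other normalisation, filters, thresholds, transcript sets and library sets, and leaving out each library, served as alternatives.

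Groups come from the labels, and replicate numbers only name libraries. The lowest chi-square per degree of freedom among 27 pairs of libraries of 1 group was 18.4, so no library was counted as a duplicate. The 10 genes and all lists were chosen with earlier results of these data known. Named are the 10 genes, up to 4 called genes of each list with the lowest FDR, the most abundant marker, the 2 genes nearest to each of the 10, and transcripts with at least 10% of a gene's counts. Promoters are RefSeq's for GRCm38.p6. Intervals are at 95%.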

Additional observations from a re-analysis of the deposited data

Results flagged for a closer look

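Matn1 in naive libraries held one value apart from the rest. Naive library 3 reached 6.88 CPM, the next library 3.31 CPM and the lowest 1.23 CPM, so that the gap was 0.631 of the range, past Dixon's critical value for 6 samples. Chance marks about 1 in 20 groups this way.

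The injured minus contralateral difference was larger at day 7 than at day 1 for 3 genes by the interaction test, by 2.76 for Matn2, 1.65 for Matn4 and 1.31 for Acan on the log2 scale. Of 24 alternative settings the call held in 24 for Matn2, in 20 for Matn4 and in 8 for Acan.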

How the results depend on the processing

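No paired analysis was possible because the labels do not say which libraries came from the same pool of mice. The authors' own analysis did account for shared pools, so the tests given here treat as independent some libraries that are not. List counts without day 7 contralateral library 1 were added after seeing the data. Pools are few and a library left out leaves 2 in a group of 3, so genes as variable as Prg4 and Cilp2 are weakly resolved. Counts of the 10 genes called at day 7 against naive and against day 1 stayed at 4 in every setting, and against the contralateral knee they ran from 4 to 6. For the interaction 3 genes were called, 1 at an FDR of 0.01, and 1 to 3 when single libraries were left out (1 without day 1 contralateral library 3, day 7 contralateral library 2 or 3 or day 7 injured library 3). Prg4 passed against the contralateral knee without the low-count filter (FDR 0.0465), by DESeq2 (FDR 0.0459) and by limma-voom (FDR 0.0405), and Hapln1 did not pass with protein-coding transcripts (FDR 0.0579) or with the 2 groups alone (FDR 0.0973).

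Some log2 fold changes that were not called changed sign. Cilp against the contralateral knee, 0.0018, became -0.0077 with DESeq2 size factors, -0.0097 without the filter, -0.0076 by DESeq2, -0.065 with protein-coding transcripts and -0.0024 with the 2 groups alone. Prg4 at day 7 against day 1 became -0.035 with protein-coding transcripts. With single libraries left out, Cilp against the contralateral knee ran from -0.16 to 0.11 and Cilp2 from -0.23 to 0.79. Cilp2 ran from -0.016 to 0.27 against naive and from -0.14 to 0.64 against day 1, and Prg4 against day 1 from -0.27 to 0.58. At day 1 Prg4 ran from -0.19 to 0.98 in injured against contralateral and from -0.44 to 0.53 in contralateral against naive. The interaction ran from -0.49 to 0.023 for Matn3 and from -1.11 to 0.013 for Cilp2. The cause was not tested.

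Over all genes, counts moved by over 1.5 times in these cases. Against naive, 3960 were higher and 2331 lower with no fold limit, and 472 lower at an FDR of 0.01 and from 797 with single libraries left out. Against the contralateral knee, lower genes numbered 452 by limma-voom, 279 with the 2 groups alone, 1310 with no fold limit, 251 at an FDR of 0.01 and 279 to 1058 with single libraries left out. Against day 1, 3427 were higher with no fold limit, and 690 were lower with protein-coding transcripts, 382 at an FDR of 0.01 and from 849 with single libraries left out. For the interaction, higher genes numbered 518 with a length offset, 341 at an FDR of 0.01 and 396 to 979 with single libraries left out, and lower genes 25 without the filter, 196 by DESeq2, 28 with the offset, 3 at an FDR of 0.01 and 9 to 93 with single libraries left out.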
